A study of Mus musculus with 3 samples.

Results

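Astrocyte sub-cluster 4 was the smallest of the 5 groups into which the authors divided the astrocytes of the lumbar spinal cord, with 178 of 1555 astrocyte nuclei and 14662 nuclei in all. Its members were the nuclei whose deposited refined cell type was astrocyte and whose deposited astrocyte sub-cluster number was 4. Sub-clusters 0, 1, 2 and 3 held 524, 438, 220 and 195 nuclei. The data were single-nucleus RNA-seq of 12 mice at 90 days of age, of which 6 were C57BL/6J wild-type (WT) littermate controls and 6 carried the transgene of the strain B6.Cg-Tg(SOD1*G93A)1Gur/J, called SOD1G93A below, with 3 females and 3 males in each group. SOD1G93A mice hold many copies of a mutant human SOD1 gene, are a model of amyotrophic lateral sclerosis, and were at a peri-symptomatic stage at this age. Hashtag antibodies marked the nuclei of each mouse, so that 4 mice covering both sexes and both genotypes could be sequenced as 1 pool, and there were 3 such pools, A, B and C. Each mouse below is named by its genotype, sex and pool.

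Astrocytes take up glutamate and potassium at synapses, hold the water channel Aqp4 on their end-feet around vessels, pass lipids and metabolites to neurons, and raise the filament protein Gfap when they become reactive. In the spinal cord, fibrous astrocytes of the white matter and protoplasmic astrocytes of the grey matter differ in these genes. A nucleus preparation reads mostly unspliced and nuclear-retained RNA, while mature messenger RNA and mitochondrial transcripts lie in the cytoplasm around it.

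Of the astrocyte markers checked, Aqp4, Gfap and Slc1a2 were found in most nuclei and Aldh1l1 in fewer. Aqp4 had a UMI (unique molecular identifier, 1 count per captured RNA molecule) in 95.5% of the sub-cluster 4 nuclei and Gfap in 80.3%, and 175 of 178 nuclei (98.3%) had a UMI of either. Slc1a2, the main glutamate transporter of astrocytes, was found in 100% of them. After each nucleus was thinned to 1000 UMIs, so that depth was equal, Aqp4 was found in 61.2% of sub-cluster 4 and in 58.0%, 26.5%, 23.5% and 80% of sub-clusters 0, 1, 2 and 3. Thinned Gfap was found in 37.1% of sub-cluster 4 nuclei, against 25.2%, 7.31%, 5.99% and 72.8%. For both markers sub-cluster 4 therefore lay between sub-clusters 0 and 3. Aldh1l1, a folate enzyme used as a general astrocyte marker, had a UMI in 30.9% of sub-cluster 4 and 36.1% of sub-clusters 0 to 3. After thinning it was found in 5.06% of sub-cluster 4, below the 9.35%, 9.59%, 5.99% and 6.15% of sub-clusters 0, 1, 2 and 3. In neurons, which should lack both genes, the thinned shares were 1.57% for Aqp4 and 1.13% for Gfap, against 14.5% and 10.6% before thinning. Among the other types the thinned shares were highest in the group deposited as Schwann and meningeal nuclei, at 26.2% for Aqp4 and 20.1% for Gfap. The median depth was 12864.5 UMIs in neurons and 5180.5 UMIs in sub-cluster 4. Thinning left out none of the 178 nuclei of sub-cluster 4 and 3 nuclei of sub-clusters 0 to 3.

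Sub-cluster 4 was present in each of the 12 mice, but in numbers from 3 to 30 nuclei. In WT females it held 6, 21 and 3 nuclei in pools A, B and C, which were 5.56%, 17.6% and 2.83% of the astrocytes of the mouse. In WT males it held 15, 25 and 3 nuclei, or 6.52%, 10.0% and 2.63%. In SOD1G93A females it held 5, 16 and 18 nuclei, or 11.1%, 15.4% and 33.3%, and in SOD1G93A males 30, 10 and 26 nuclei, or 20.7%, 7.87% and 17.0%. The groups overlapped, since the WT female of pool B lay above 4 of the 6 SOD1G93A mice, and both genotypes spread widely. The highest share, in the SOD1G93A female of pool C, came from a mouse with few astrocytes (54 nuclei).

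**Figure D1:**
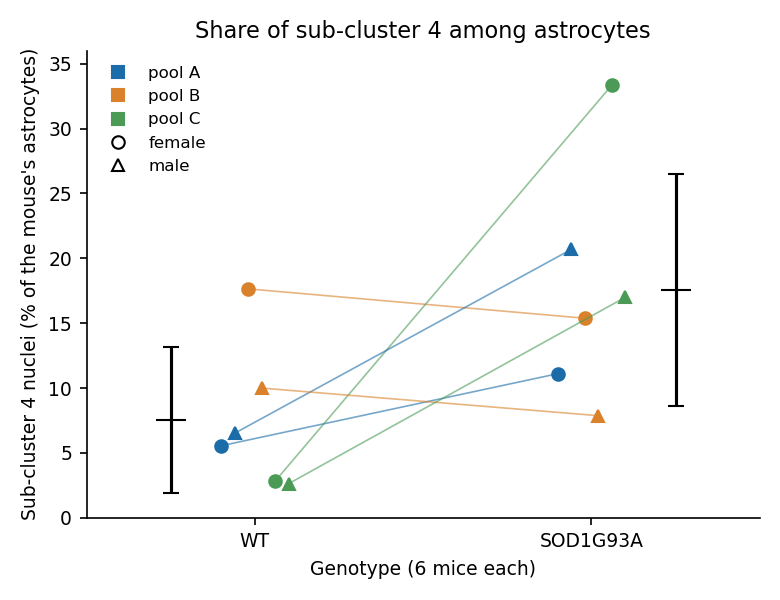
Share of sub-cluster 4 among the astrocyte nuclei of each mouse (percent, y axis) by genotype, with 1 point per mouse (color for pool, shape for sex), lines joining mice of 1 pool and sex, and bars for the mean of 6 mice ± SD. The means are 7.53% in WT and 17.6% in SOD1G93A, and the groups overlap between 7.87% and 17.6%.

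The mean share was 7.53% ± 5.65 (SD, n = 6) in WT and 17.6% ± 8.93 (SD, n = 6) in SOD1G93A mice. In edgeR's quasi-likelihood test on the nuclei per mouse, with sex-by-genotype group and pool in the model, the share was 2.39-fold higher in SOD1G93A mice (log2 difference 1.26 ± 0.56 SE). Its Benjamini-Hochberg adjusted p over the 5 sub-clusters was 0.0925, so the difference did not pass the threshold of 0.05 (unadjusted p = 0.0555). The estimate was 1.25 in females and 1.27 in males on the log2 scale, and these did not differ beyond their error (difference -0.02, edgeR adjusted p = 0.981). Within pools and sexes, the SOD1G93A mouse was higher in 4 of 6 pairs. The differences were 5.56, -2.26 and 30.5 percentage points in females of pools A, B and C, and 14.2, -2.13 and 14.4 points in males. Both pairs of pool B therefore went the other way. The mean difference was 10.0 points ± 12.4 (SD), with a two-sided exact sign-flip permutation p of 0.125, where 6 pairs cannot give less than 0.03125. Without the WT female of pool B the edgeR adjusted p was 0.0232, and without the SOD1G93A male of pool B it was 0.0308. With only the nuclei that the deposited reference mapping called astrocytes, the log2 difference was 0.95 (edgeR adjusted p = 0.152). In the same test sub-cluster 3 was larger in SOD1G93A mice (log2 difference 0.97, edgeR adjusted p = 0.000278) and sub-cluster 1 smaller (-1.40, edgeR adjusted p = 0.00173). Shares within 1 population sum to a whole, so they are not independent of that of sub-cluster 4. Females did not differ from males in the share of sub-cluster 4 beyond the error (log2 difference 0.35 ± 0.54 SE, edgeR adjusted p = 0.867). The direction between the sexes turned when the share was taken of all nuclei (-0.11), without the WT female of pool B (-0.19) and without the SOD1G93A female of pool C (-0.12).

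Mitochondrial RNA was higher in sub-cluster 4. The authors computed the percent of the UMIs of each nucleus that came from mitochondrial genes, and discarded those genes before clustering. The median over the mice's medians was 6.41% in sub-cluster 4 and 0.925% in sub-clusters 0 to 3. In WT mice the sub-cluster 4 medians were 5.98%, 4.54% and 7.70% in females of pools A, B and C and 7.26%, 7.53% and 5.52% in males. In SOD1G93A mice they were 1.79%, 7.30% and 3.80% in females and 4.72%, 6.996% and 6.85% in males. The medians of the other astrocytes ran from 0.546% to 1.49%, so the lowest mouse of sub-cluster 4 lay above the highest of the rest. The difference within mice was 4.93 percentage points ± 1.95 (SD, n = 12), higher in 12 of 12 mice, with a two-sided exact sign-flip permutation p of 0.000488, the smallest that 12 mice can give. The sub-clusters were made from other genes of the same nuclei. Such genes can go with mitochondrial RNA, as the ribosomal protein share below did, so this p is not independent of the clustering. The lowest value, 1.79%, came from 5 nuclei of the SOD1G93A female of pool A.

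**Figure D2:**
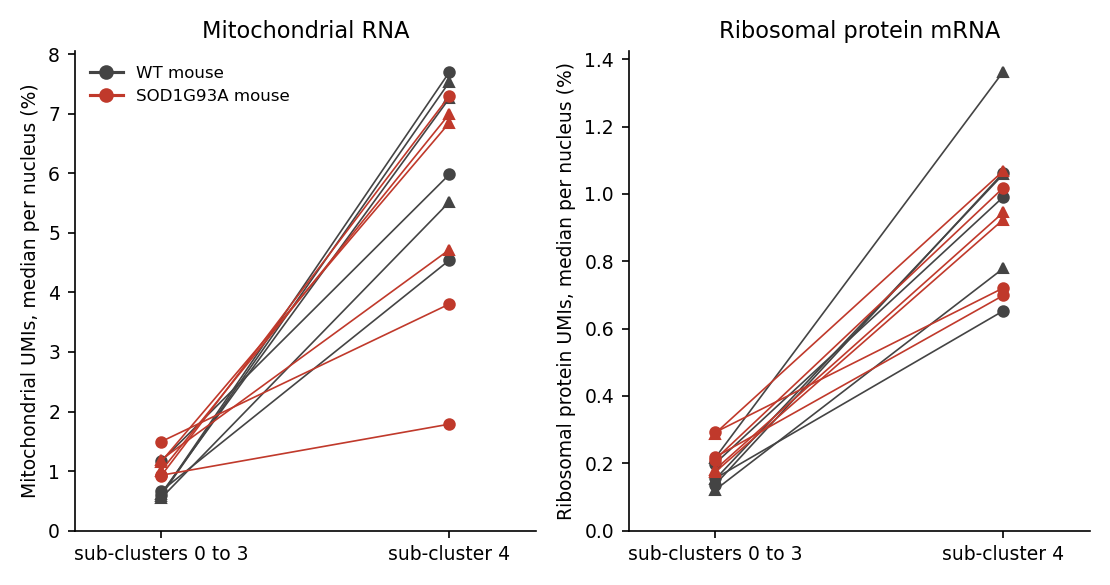
Median percent of UMIs on mitochondrial genes and on genes of cytosolic ribosomal proteins (y axes) in sub-cluster 4 and in sub-clusters 0 to 3, with 1 line per mouse joining its 2 medians (black for WT, red for SOD1G93A, circles for females, triangles for males). Both measures are higher in sub-cluster 4 in 12 of 12 mice.

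The authors' filter removed nuclei above 10% mitochondrial UMIs, and sub-cluster 4 reached close to that limit, with a highest value of 9.99%. In it, 110 nuclei (61.8%) were at 5% or more and 47 (26.4%) at 8% or more, against 4.79% and 0.871% of sub-clusters 0 to 3. Of the 176 astrocyte nuclei at 5% or more, 62.5% were members of sub-cluster 4. The pooled median was 6.45% in the WT and 5.63% in the SOD1G93A nuclei of the sub-cluster. The sub-cluster 4 median over nuclei, 6.08%, was above that of every other cell type in the series. Ependymal nuclei were at 5.34%, endothelial nuclei at 3.097% and the Schwann and meningeal group at 1.77%, while neurons, oligodendrocytes and microglia were at 0.173%, 0.252% and 0.115%.

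Depth itself was not high. The median was 5180.5 UMIs per nucleus in sub-cluster 4 and 5353 in sub-clusters 0 to 3, and it was lower in sub-cluster 4 in 9 of 12 mice. At equal depth of 1000 UMIs, sub-cluster 4 nuclei nevertheless held a median of 738 genes against 665, higher in 12 of 12 mice. Sub-cluster 3 was close, with a median of 715 genes (quartiles 696 and 733, against 707 and 761 in sub-cluster 4). Hashtag antibody counts were a median of 1386 per nucleus against 1250, higher in 10 of 12 mice. The margin, the distance between the highest and the next hashtag signal of a nucleus, was 0.526 against 0.395, also higher in 10 of 12 mice. No barcode of a sub-cluster 4 nucleus occurred in more than 1 pool. In all, sub-cluster 4 gave 1144966 UMIs, from 9427 to 282014 per mouse, and sub-clusters 0 to 3 gave 8773404. A few deep nuclei carried much of this: 6 sub-cluster 4 nuclei above 20000 UMIs held 20.8% of its UMIs, and 36 such nuclei of sub-clusters 0 to 3 held 12.4% of theirs. A nucleus of 78750 UMIs made up 27.9% of the SOD1G93A male of pool A, and 1 of 65875 UMIs, mapped to neurons, made up 40.8% of the SOD1G93A male of pool C. Nuclei with several hashtags had been removed by the authors, but doublets within a mouse carry 1 hashtag and were not marked.

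Gene levels are given below as CPM, the counts of a gene per 1000000 UMIs summed over nuclei, and ratios as log2 of sub-cluster 4 over sub-clusters 0 to 3 after 1 CPM was added. These ratios carry no test, because the clusters were made from the same genes. They pool both genotypes in unequal parts, since SOD1G93A mice gave 64.6% of the UMIs of sub-cluster 4 and 40.6% of those of sub-clusters 0 to 3, so that genes that differ by genotype move in the pooled ratio too. Of 9306 genes with at least 100 UMIs over all astrocytes, the median log2 ratio was 0.09 and 56.3% were above 0. At least 2-fold higher, and higher in at least 10 of 12 mice, were 613 genes (6.59%), and 169 genes (1.82%) were at least 2-fold lower and lower in at least 10 mice. The lower count was 265 with a mean over nuclei and 317 with a mean over mice.

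Genes of the cytosolic ribosome were higher as a group. All 62 measured ribosomal protein genes were higher in sub-cluster 4, 53 of them at least 2-fold in at least 10 mice, with a median log2 ratio of 1.96 beside 0.09 for all genes. Their summed level was 8650 CPM against 2142 CPM and was higher in 12 of 12 mice. In WT mice the sum had a lowest value of 6453, a median of 10824 and a highest of 13343 CPM in sub-cluster 4, against 1658 to 2593 CPM in the rest. In SOD1G93A mice it had a lowest value of 5334, a median of 9212 and a highest of 13060 CPM, against 1892 to 3123 CPM. The groups of nuclei did not overlap in either genotype. Rpl32, of the large subunit, was at 192 against 34.99 CPM, and Rps3, of the small subunit, at 269 against 53.9 CPM. Ribosomal protein genes have many near-identical pseudogenes, so reads may be split between copies and single values are less certain. The share of ribosomal protein UMIs was also compared by mitochondrial class. Its median was 0.634% in the 68 nuclei of sub-cluster 4 below 5% mitochondrial UMIs and 1.15% in the 110 at or above 5%. In sub-clusters 0 to 3 it was 0.176% in 1311 nuclei below 5% and 0.513% in 66 nuclei at or above 5%.

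The nuclear genes of the respiratory chain, which makes ATP in mitochondria, were higher as a group too. Of 78 measured, 73 were higher and 43 met the 2-fold rule, with a median log2 ratio of 1.45 and sums of 7844 against 3432 CPM. The 5 that were lower included Cox7b2 (-3.09), a subunit form best known from testis, and Atp5o (-0.88). Atp5o and Cox7b2 span 242585 and 105382 bases in the annotation. Proteasome genes, which break down tagged proteins, were higher in 30 of 33, with a median log2 ratio of 0.81 and 3 that met the 2-fold rule.

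Heat shock genes, which fold and rescue proteins, were higher in 8 of 8 measured, with a median of 1.597 and 6 that met the 2-fold rule. Their sums were 1575 against 487 CPM. Hsp90aa1 was at 275 against 68.7 CPM and Hspa8 at 401 against 121 CPM. Of the immediate early genes, which respond fast to stimuli, 3 of 11 were measured and all 3 were higher, with log2 ratios of 1.67 for Egr1, 1.58 for Jund and 1.16 for Jun. Only 1 of the 3 met the 2-fold rule, which also asks for a higher level in at least 10 mice.

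Metal-binding genes, which hold zinc, copper and iron, were higher in 5 of 5, and their sum of 7255 CPM was 3.24 times the 2242 CPM of the rest. Fth1, the heavy chain of ferritin, was at 4557 against 1203 CPM (log2 ratio 1.92). The metallothioneins Mt3, Mt1 and Mt2 had log2 ratios of 1.95, 1.34 and 0.74, and the ferritin light chain Ftl1 1.71. In WT mice the sum of the 5 genes had a lowest value of 5058, a median of 7765 and a highest of 11384 CPM in sub-cluster 4, above the 1463 to 2431 CPM of the rest. In SOD1G93A mice these values were 5512, 7819 and 10001 CPM, above the 2472 to 3609 CPM of the rest. Pooled within a genotype, the ratio of the sums was 4.20 in WT and 2.47 in SOD1G93A mice. Sub-cluster 3 came closest, with 5237 CPM.

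The markers of astrocytes did not move together. Of the 20 genes of the astrocyte list, 14 were higher and 6 lower, the median log2 ratio was 0.22, and the pooled sum was 23141 against 25951 CPM. Sub-clusters 0, 1, 2 and 3 were at 30881, 30472, 13974 and 21949 CPM. Within mice the sum was nevertheless higher in sub-cluster 4 in 8 of 12, 5 of them WT. It was lower in the WT female of pool B and, by more, in the SOD1G93A female of pool C and the SOD1G93A males of pools A and C. Aldoc, an enzyme of glycolysis used as an astrocyte marker, was at 1200 against 373 CPM (log2 ratio 1.68), and Glul, glutamine synthetase, at 717 against 326 CPM (1.14). Gfap was at 610 against 354 CPM (0.78) but at 1303 CPM in sub-cluster 3. Pooled within a genotype, Gfap was at 486 against 234 CPM in WT and at 679 against 530 CPM in SOD1G93A mice. Gpc5, a cell-surface proteoglycan, was lower, at 3632 against 8100 CPM (-1.16), yet above its 1387 CPM in sub-cluster 3. The list of white matter astrocyte genes was higher in 13 of 17, with a median of 0.59 and sums of 3404 against 2298 CPM, while sub-cluster 3 was at 6653 CPM. By genotype, the median over mice of the white matter sum was 3283 against 1736 CPM in WT and 3851 against 3093 CPM in SOD1G93A mice. Of the grey matter list 7 of 12 were lower, with a median of -0.26 and sums of 9458 against 14409 CPM. Both lists thus placed sub-cluster 4 between sub-cluster 3 and sub-clusters 0 and 1. Sub-cluster 2 was close to sub-cluster 4 for the grey matter list, at 9404 CPM, but far below it for the white matter list, at 793 CPM. Genes of lipid and cholesterol supply were higher in 14 of 19, with a median of 0.80, led in level by Apoe, the main lipoprotein of astrocytes, at 3148 against 1704 CPM. Their sum of 7427 CPM was below the 7973 CPM of sub-cluster 3, and sub-cluster 0 was at 6602 CPM. Pooled within a genotype, the ratio of the lipid sums to those of sub-clusters 0 to 3 was 1.90 in WT and 1.24 in SOD1G93A mice. Genes of glutamate and GABA uptake were higher in 5 of 8 (median 0.20), and those of potassium and water transport lower in 6 of 10 (median -0.15). Uptake sums were 8945 CPM in sub-cluster 4 and 10358, 7414, 3723 and 7590 CPM in sub-clusters 0, 1, 2 and 3. The pooled sum of the potassium and water list was 9924 against 11347 CPM, but within mice it was higher in sub-cluster 4 in 7 of 12, 5 of them WT. For this list sub-clusters 0, 1, 2 and 3 were at 13260, 12324, 6476 and 11469 CPM, so only sub-cluster 2 lay below sub-cluster 4.

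**Figure D3:**
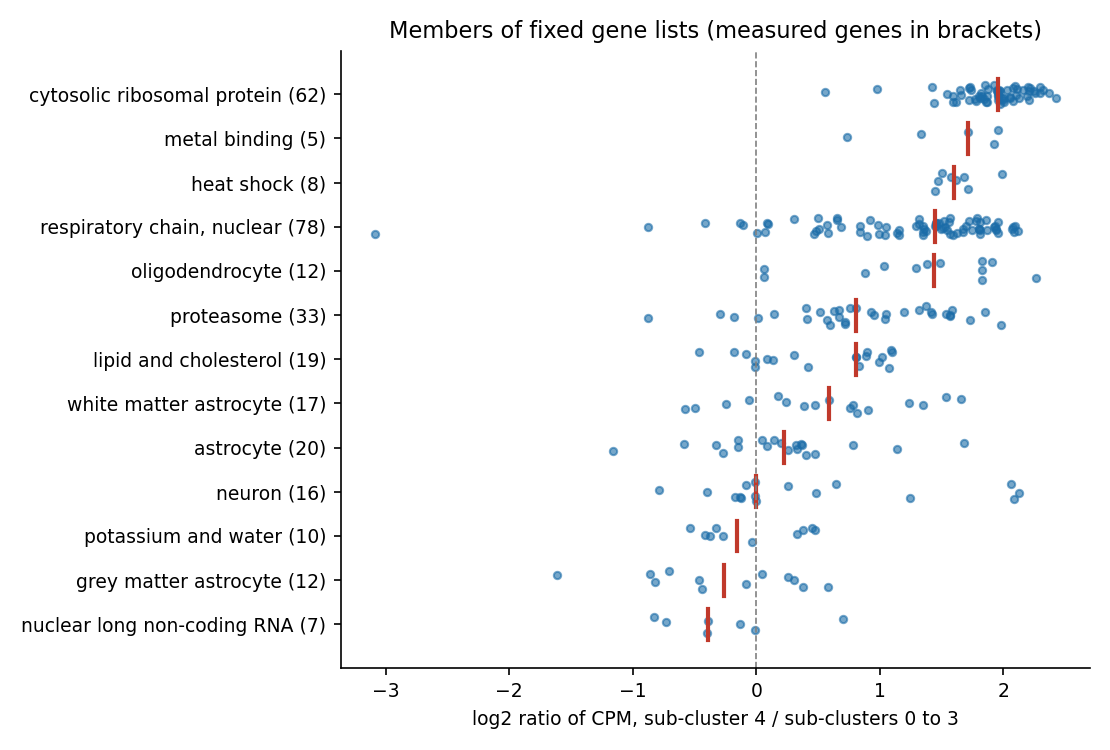
Log2 ratio of CPM in sub-cluster 4 over sub-clusters 0 to 3 (x axis) for each list of genes (y axis), with the median as a red bar and the ratios of single genes as points. Ribosomal protein (1.96), metal-binding (1.71), heat shock (1.597) and respiratory chain genes (1.45) lie to the right of the median of all measured genes (0.09), and nuclear long non-coding RNAs (-0.39) to the left.

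The single genes with the highest ratios among those with at least 100 UMIs in sub-cluster 4 were Camk2n2, Pfn1, Rpl32, Bex2, Sncb, Rplp0, Calm3, Rpl28, Sod1, Qdpr, Cplx1, Rps3, Scn4b, Rps23 and Ubb, with log2 ratios from 2.54 down to 2.29. They were of mixed function. Camk2n2, an inhibitor of the kinase CaMKII, was at 210 against 35.2 CPM and higher in 11 of 12 mice. Ubb, which encodes ubiquitin, was at 785 against 160 CPM and higher in 12 of 12 mice, with the smallest spread of the 15 (SD of the log2 ratio over mice 0.295). Sncb and Cplx1, which act at presynaptic terminals, were at 158 against 29.6 CPM and at 216 against 42.9 CPM. Pfn1 and Calm3 encode the actin binder profilin and a calmodulin, and Qdpr an enzyme of biopterin recycling. Sod1 is the gene of the transgene, and its pooled ratio also holds the unequal mix of genotypes. Pooled within a genotype, Sod1 was at 148 against 117 CPM in WT and at 1979 against 485 CPM in SOD1G93A mice, a ratio of 1.27 in WT and 4.08 in SOD1G93A.

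The genes with the lowest ratios among those with at least 500 UMIs in sub-clusters 0 to 3 ran from Ccnjl (-1.62), Grin2c (-1.61), Fkbp5 (-1.39), Gm48512 (-1.36), 4930570B17Rik (-1.34) and Irak2 (-1.34) to Frem1, Gm31224, Gm15283, Zfp641, Vav3, Etv4, Stk32a, Kirrel3 and Galnt18 (-1.19). Grin2c, an NMDA receptor subunit that grey matter astrocytes express, was at 20.1 against 63.5 CPM, from 23 UMIs in sub-cluster 4. Kirrel3, a cell adhesion gene, was at 1222 against 2795 CPM and lower in 12 of 12 mice. Against sub-cluster 3 alone the direction turned for Ccnjl (1.05), Grin2c (0.93), Frem1 (0.55), Vav3 (1.70), Etv4 (1.38), Kirrel3 (0.53), Galnt18 (0.06) and Gpc5 (1.39).

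The ratios ran with the length of the gene from its start to its end in the annotation (GENCODE vM21, GRCm38), introns included. Of 1189 measured genes under 10 kb, 86.3% were higher in sub-cluster 4 and the median log2 ratio was 1.10. The median was 0.30 for 10 to 30 kb, 0.00 for 30 to 100 kb, -0.14 for 100 to 300 kb and -0.22 for the 547 genes over 300 kb. Genes under 10 kb took 14.3% of the UMIs of sub-cluster 4 and 9.06% of those of sub-clusters 0 to 3, and more in sub-cluster 4 in 12 of 12 mice. Genes over 300 kb took 26.5% against 34.5%. Sub-cluster 3 was close for these long genes, at 28.2%, and in between for genes under 10 kb, at 11.1%. The 15 leading higher genes included Ubb, of 2043 bases on chromosome 11 (62551171 to 62553213), and Camk2n2, of 2073 bases on chromosome 16 (20619215 to 20621287). Kirrel3 and Gpc5, both lower, span 550823 and 1432965 bases. Not all leading lower genes were long, since Zfp641, Etv4, Gm31224 and Grin2c span 10577, 15630, 16025 and 18075 bases. RNAs that stay in the nucleus were lower: 6 of 7 measured long non-coding RNAs had ratios below 0, with a median of -0.39. Malat1, the most abundant of them, was at 30355 against 40130 CPM and lower in 11 of 12 mice, and Neat1, a scaffold of paraspeckles, at 195 against 347 CPM and lower in 12 of 12.

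**Figure D4:**
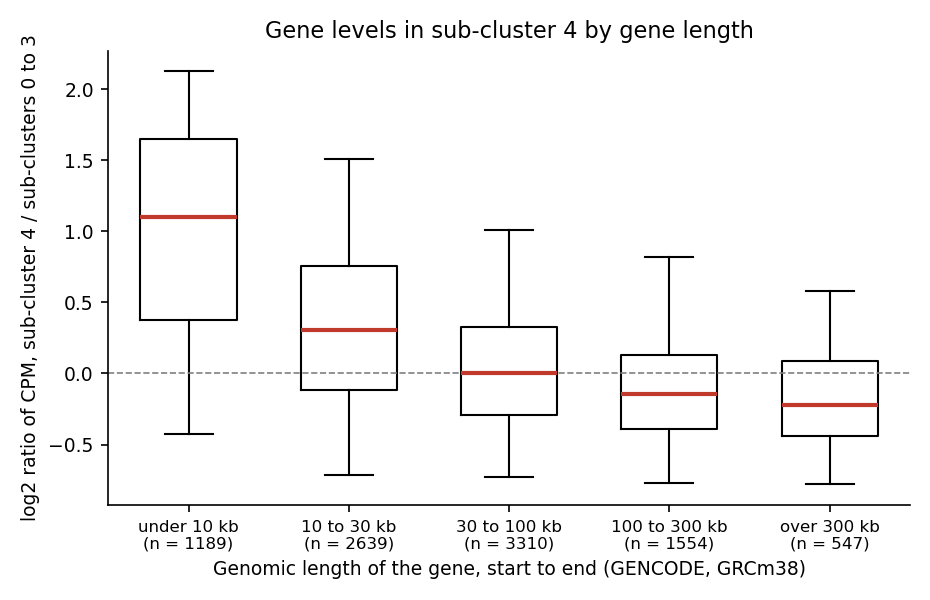
Log2 ratio of CPM in sub-cluster 4 over sub-clusters 0 to 3 (y axis) for measured genes in 5 classes of gene length (x axis, kb), with red lines for medians, boxes for quartiles and whiskers from the 5th to the 95th percentile. The median is 1.10 under 10 kb and -0.22 over 300 kb.

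RNA known from other cell types was uneven in sub-cluster 4. All 12 oligodendrocyte genes were higher, 6 by the 2-fold rule, with sums of 5739 against 1768 CPM and a median log2 ratio of 1.43. Their sum ran from 5065 to 8856 CPM over the 12 mice, above the 1266 to 3079 CPM of the other astrocytes. Sub-clusters 0, 1, 2 and 3 were at 1925, 833, 1442 and 3501 CPM. Such a level was not particular to sub-cluster 4. The sum was 7207 CPM in the Schwann and meningeal group, 6428 CPM in microglia and 5202 CPM in oligodendrocyte precursors. Oligodendrocytes were at 16660 CPM and the remaining types at 689 to 2079 CPM. Mbp, myelin basic protein, was at 2850 CPM in sub-cluster 4, 593 CPM in sub-clusters 0 to 3 and 2831 CPM in oligodendrocytes themselves. Mobp, another myelin protein, was at 467, 131 and 1133 CPM. St18 and Prr5l, the most abundant genes of the list in oligodendrocyte nuclei at 4026 and 4153 CPM, were close to equal in sub-cluster 4 and the rest, at 165 against 158 CPM and 155 against 148 CPM. St18 and Prr5l span 373710 and 168743 bases, and Mbp and Mobp 110492 and 31778.

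The neuron list was uneven too. Of its 16 genes 7 were higher, 3 of them (Snap25, Nefl and Camk2a) by the 2-fold rule, and the pooled sum was 11631 against 11463 CPM. The level of the rest was raised by sub-cluster 2, which was at 28297 CPM. Sub-clusters 0, 1 and 3 were at 7280, 6996 and 7545 CPM, all below sub-cluster 4. Within mice the sum was higher in sub-cluster 4 in only 3 of 12, namely the SOD1G93A female of pool C (15375 CPM) and the SOD1G93A males of pools A (13219 CPM) and C (19091 CPM), which hold 5 of its 6 nuclei above 20000 UMIs. With only nuclei of at most 20000 UMIs the pooled sums were 9265 against 8399 CPM. Snap25, of the synaptic vesicle fusion machinery, was at 1299 CPM in sub-cluster 4, 306 CPM in the rest and 776 CPM in neurons. Nefl and Nefm, the light and medium neurofilament chains, were at 576 and 366 CPM against 137 and 83.2 CPM, and at 54.5 and 74.0 CPM in neurons. All 3 were thus above their levels in neuronal nuclei, and Nefm was higher in 9 of 12 mice. The other neuronal genes did not move as one. Rbfox3 (80.4 against 51.1 CPM) and Gria1 (652 against 545 CPM), which span 421836 and 318858 bases, were higher. Among those that were close to equal or lower, Cntnap2 was at 1178 against 1330 CPM, Nrg1 at 569 against 573 CPM, Rbfox1 at 1182 against 1253 CPM, Syt1 at 336 against 336 CPM, Kcnip4 at 1437 against 1894 CPM and Nrxn3 at 1350 against 2328 CPM. Meg3 and Snhg11, shorter at 30726 and 10508 bases, were at 1647 against 1662 CPM and at 582 against 639 CPM. Nefl and Nefm overlap on opposite strands of chromosome 14, so reads of both could be shared where strand was not used. Thinned Snap25 was found in 53.4% of sub-cluster 4 nuclei, against 24.6% of sub-clusters 0 to 3, and 16.7% of endothelial, 29.6% of microglial, 33.3% of oligodendrocyte precursor and 39.1% of ependymal nuclei. Before thinning it was found in 92.1% of sub-cluster 4, 66.6% of sub-clusters 0 to 3 and 65.1% of endothelial nuclei, with a median depth of 6963 UMIs in endothelial nuclei.

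The remaining lists differed in level. The motor neuron list, of which 2 of 5 genes were measured, summed to 168 against 46.7 CPM (1538 CPM in motor neurons) and was higher in 8 of 12 mice. The oligodendrocyte precursor list was at 1028 against 1060 CPM (6320 CPM in precursors) and higher in 3 of 12 mice. The microglia list summed to 131 against 116 CPM (324 CPM in microglia), the endothelial list to 122 against 151 CPM (20964 CPM in endothelial nuclei) and the ependymal list to 67.3 against 46.5 CPM (7439 CPM in ependymal nuclei). Of the Schwann cell list, Prx and Pmp2 had no UMI in sub-cluster 4, and the sum was 362 against 512 CPM. The group deposited as Schwann and meningeal nuclei was itself at 250 CPM for this list, below both, and oligodendrocytes were at 734 CPM, so the list did not mark that group here. A count of 0 over the UMIs of sub-cluster 4 allows a level of up to 2.62 CPM. Levels in the Schwann and meningeal group were also set beside the genes higher in sub-cluster 4. Of the 613 genes at least 2-fold higher, 420 (68.5%) had their highest level among the 9 other types in that group, against 24.1% of all measured genes and 1 of the 169 lower genes. Of the 15 leading higher genes 9 were highest there, and the other 6, among them Rpl32, Rps3 and Pfn1, in endothelial nuclei. Sod1 was at 2972 CPM in the Schwann and meningeal group, Snap25 at 3467 CPM and Calm3 at 704 CPM. That group had a median of 1584 UMIs per nucleus, its thinned nuclei had a UMI of Slc1a2 in 64.1% and of Snap25 in 93.0%, and its part in the levels of sub-cluster 4 was not tested.

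The other deposited labels of these nuclei differed from those of the rest. All 178 nuclei fell in cluster 2 of the 61 clusters over all nuclei, with 385 nuclei of sub-cluster 0, 191 of sub-cluster 3, 8 of sub-cluster 2 and none of sub-cluster 1. The mapping to a published spinal cord reference called 115 of them astrocytes, left 57 unlabeled and called 3 oligodendrocyte precursors and 3 neurons. Unlabeled nuclei were thus 32.0% of sub-cluster 4 and 0.218% of sub-clusters 0 to 3. They made up 15 of 73 WT nuclei (20.5%) and 42 of 105 SOD1G93A nuclei (40%) of the sub-cluster when nuclei were pooled. Per mouse the genotypes overlapped widely. In WT mice the unlabeled share was 0%, 4.76% and 0% in females of pools A, B and C and 33.3%, 28% and 66.7% in males. In SOD1G93A mice it was 60%, 18.8% and 55.6% in females and 46.7%, 20% and 38.5% in males. The highest share came from the WT male of pool C, with 3 nuclei. The unlabeled nuclei had a median of 2205 UMIs, against 5759 in those called astrocytes, and mitochondrial medians of 4.85% and 6.43%. Their neuron list was at 16618 against 7779 CPM and their astrocyte list at 17815 against 27225 CPM. The nucleus of 78750 UMIs in the SOD1G93A male of pool A was 1 of the unlabeled and gave 27.3% of their UMIs. With only nuclei of at most 20000 UMIs, the neuron list was at 15097 against 7017 CPM and the astrocyte list at 20967 against 28215 CPM. The ribosomal protein sums of all nuclei were 9621 and 8957 CPM. The SingleR annotation, from a comparison with sorted cells, called 59.6% of sub-cluster 4 quiescent neural stem cells (qNSCs) and 7.30% astrocytes, against 11.5% and 50.7% of sub-clusters 0 to 3. It gave the qNSC label to 81 of 524, 12 of 438, 11 of 220 and 55 of 195 nuclei of sub-clusters 0, 1, 2 and 3. It also called 15.7% of sub-cluster 4 and 24.5% of sub-clusters 0 to 3 granulocytes, a blood cell type, so its calls of single nuclei are uncertain.

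The comparison of genotypes within sub-cluster 4 asked which genes differ between SOD1G93A and WT mice in these nuclei. It was made with limma-voom on the UMIs summed per mouse, with sex-by-genotype group and pool in the model and an adjusted p under 0.1 as threshold. Of 2331 genes tested 1 passed (0.0429%), and 96 (4.12%) had an unadjusted p under 0.05. edgeR and DESeq2 also called 1 gene each, with 76 and 70 genes at an unadjusted p under 0.05. The count rested on single mice, since limma-voom called 28 genes without the WT female of pool B and 29 without the SOD1G93A female of pool B. In sub-clusters 0 to 3 the same fit called 186 of 8808 genes (2.11%), 115 higher and 71 lower. In counts simulated on the means and depths of sub-cluster 4, limma-voom recovered 52.9% of 2-fold and 100% of 4-fold differences. The simulation gave all genes 1 dispersion (0.085) and held no pool effect and no single deep nuclei. Recovery in the data may therefore be lower.

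**Figure D5:**
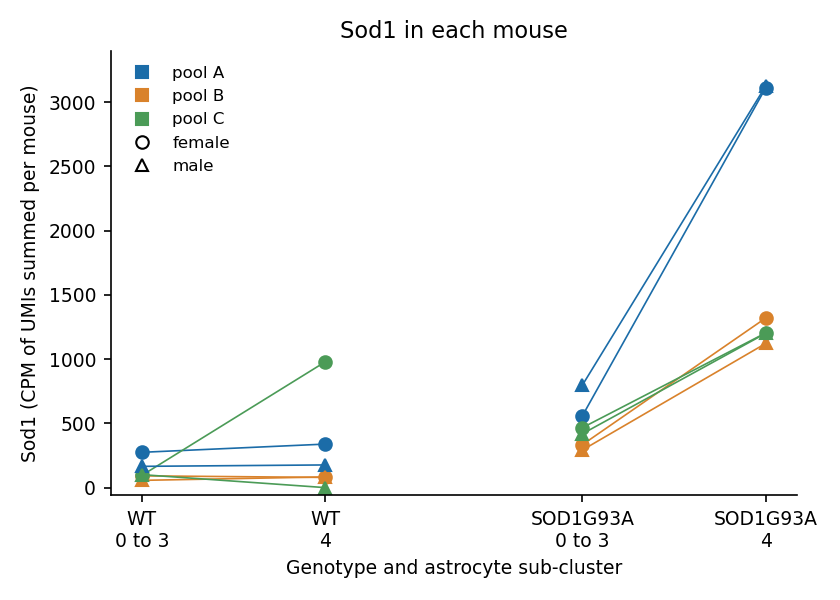
Sod1 level (CPM of summed UMIs, y axis) in each mouse, in sub-cluster 4 and in sub-clusters 0 to 3, by genotype, with 1 point per mouse (color for pool, shape for sex) and a line joining the 2 values of a mouse. In sub-cluster 4 the SOD1G93A mice lie between 1123 and 3128 CPM, above the 0 to 980 CPM of the WT mice.

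The gene was Sod1, superoxide dismutase 1, on chromosome 16 (90220754 to 90226329, plus strand, GRCm38). In WT mice its level in sub-cluster 4 was 339, 79.3 and 980 CPM in females of pools A, B and C, and 177, 83.3 and 0 CPM in males. The values of 980 and 0 CPM came from 15 and 0 UMIs in mice with 3 nuclei each. In SOD1G93A mice it was 3113, 1321 and 1204 CPM in females and 3128, 1123 and 1201 CPM in males, so the genotypes did not overlap. The log2 difference was 3.54 ± 0.30 SE (limma-voom adjusted p = 2.69e-08; edgeR 3.20, adjusted p = 8.62e-05; DESeq2 3.18, adjusted p = 1.84e-08). In a fit without the pool term the adjusted p was 0.167 in limma-voom (log2 difference 3.61), and no gene passed, with 106 at an unadjusted p under 0.05. Transcripts of the human transgene and of mouse Sod1 cannot be told apart in these counts. In SOD1G93A mice Sod1 in sub-clusters 0 to 3 was at 292 to 797 CPM, below every SOD1G93A value of sub-cluster 4. The genotype effect of Sod1 was 1.3 larger on the log2 scale in sub-cluster 4 than in sub-clusters 0 to 3, but this difference did not pass the test (limma-voom adjusted p = 0.425). It passed without the WT female of pool C, where 5 genes did.

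Of the 11 astrocyte genes taken from the study, 8 had enough counts to be tested in sub-cluster 4 (Grin2c, Fos and Hpse2 did not), and among these 8 Sod1 alone passed. Gfap had a log2 difference of 0.67 ± 0.25 SE and Clu, a secreted chaperone that carries lipids, one of 0.50 ± 0.24 SE, each with a limma-voom adjusted p of 0.981. In sub-clusters 0 to 3 the log2 difference of Gfap was 1.16. Among nuclei mapped to astrocytes alone, Gfap passed as well as Sod1 (log2 difference 1.15). Gfap in sub-cluster 4 had a lowest value of 327, a median of 476 and a highest of 1485 CPM in WT mice, and 550, 825 and 987 CPM in SOD1G93A mice. The highest WT value came from the WT male of pool C, with 3 nuclei. Mt1, Mt2, Mt3, Fth1 and Sparc had log2 differences of 0.15, -0.03, -0.31, -0.01 and 0.02. Of the metal-binding list 0 of 5 passed in sub-cluster 4 and 4 of 5 in sub-clusters 0 to 3, of the white matter list 0 of 10 and 9 of 17, and of the reactive list 0 of 1 tested and 5 of 10. Over all genes tested the shares that passed were 0.0429% in sub-cluster 4 and 2.11% in sub-clusters 0 to 3, so that counts of 0 in the former are near its background. The make-up of sub-clusters 0 to 3 differed by genotype too. Per mouse, sub-cluster 3 held a mean of 9.35% of WT and 18.9% of SOD1G93A astrocytes, and sub-cluster 1 36.9% and 14.7%. The metal-binding sum was 5237 CPM in sub-cluster 3 and 805 CPM in sub-cluster 1, and the white matter sum 6653 and 893 CPM. Genotype effects given for sub-clusters 0 to 3 thus can mix make-up with level, and these cannot be told apart in the sums. The metal-binding genes were at high levels in sub-cluster 4 of both genotypes, with sums of 5058 to 11384 CPM in WT and 5512 to 10001 CPM in SOD1G93A mice. Of the 14 neuron genes tested 13 had a log2 difference above 0, as did 1213 of the 2331 genes tested, with medians of 0.39 and 0.02, and 0 neuron genes passed. The summed neuron list was at 13219 to 19091 CPM in the 3 SOD1G93A mice with deep nuclei and at 5373 to 10934 CPM in the other 3. The part of these nuclei, and of the unlabeled nuclei, was not tested.

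Whether the genotype effect differed between sub-cluster 4 and sub-clusters 0 to 3 was tested with 2 sums per mouse and the mouse as a block. The sums of sub-clusters 0 to 3 hold the shift in make-up given above, so a difference of effects can hold it too. Of 7012 genes 1 passed (0.0143%), and 382 had an unadjusted p under 0.05. The gene was Gm40841, a long non-coding gene model on chromosome 13 (28394453 to 28420066, minus strand), with a difference of effects of 2.53 ± 0.52 SE on the log2 scale (limma-voom adjusted p = 0.0603). It had 0, 2, 0, 0, 1 and 1 UMIs in sub-cluster 4 of the 6 WT mice and 4, 5, 13, 12, 4 and 19 in the SOD1G93A mice. In sub-clusters 0 to 3 its level was 25.9 to 57.7 CPM in WT and 27.5 to 63.9 CPM in SOD1G93A mice. The test called 10 genes with edgeR, 0 with a minimum count of 30, 0 with the mouse as a random block and 0 with nuclei of at most 20000 UMIs. Mt1 (-0.69, adjusted p = 0.711) and Gfap (-0.53, adjusted p = 0.921) did not pass in limma-voom. In simulated counts this test recovered 13% of 2-fold and 80% of 4-fold differences of effect. Those counts had the same settings and drew the 2 sums of a mouse independently, so recovery in the data may differ.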

How the data were processed

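Nuclei of flash-frozen lumbar spinal cord were hashtagged per mouse and sequenced on the 10x platform. The authors aligned reads with Cell Ranger 3.1 to a pre-mRNA mm10 reference, assigned nuclei to mice in R 4.0.3 with version 4.0.3 of Seurat, removed nuclei with under 200 genes or over 10% mitochondrial UMIs, multiple hashtags or none, and integrated the pools. The submitters' processing notes also name STAR 2.5.1b and bcl2fastq 2.20.0.422. The settings of the astrocyte sub-clustering are not given in the sources used here. The deposited UMI table holds raw counts per gene and nucleus, with 31040 genes and no mitochondrial genes. The deposited table of nuclei holds counts of UMIs, genes and hashtags, the authors' percent of mitochondrial UMIs, the mapping score as a fraction, and labels. The integrated values were not used.

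From the counts, UMIs were summed per mouse and set of nuclei (Python 3.11.15, numpy 2.4.6, pandas 2.3.3, scipy 1.17.1; figures with matplotlib 3.10.9). Shares were tested with edgeR 4.0.16 (adjusted p under 0.05). Genes were tested with limma 3.58.1 voom (R 4.3.3; filterByExpr minimum count 10, TMMwsp, adjusted p under 0.1), with edgeR and DESeq2 1.42.0 as alternatives, after checks on simulated counts. Gene lengths come from GENCODE vM21, which matched 98.1% of genes. The mice are separate animals, so p-values measure the spread between mice. Mice of a pool share a library, which is where the pool term comes from. The ± values are SDs over mice or pairs and SEs from the fits on mice, while the floor in CPM covers counting error only.

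Genes named were the 15 highest and 15 lowest ratios among genes with enough UMIs and the same direction in at least 80% of mice, those past a genotype test, members of the gene lists, and astrocyte genes named by the study. Members and lists were chosen with earlier results of these data known. Other scalings, filters, depth limits and each mouse left out in turn were tried. The analyses with only nuclei mapped to astrocytes, with nuclei of at most 20000 UMIs and with sums pooled within a genotype were chosen after seeing the data. Values of some single list members are not reported here.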

Additional observations from a re-analysis of the deposited data

Results flagged for a closer look

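In 80 groups of 6 mice of 1 genotype, 8 values stood far from the other 5 mice, where chance alone sets apart about 1 group in 20. Of these, 6 came from the WT female or the WT male of pool C, each with 3 nuclei of sub-cluster 4. In the WT female of pool C, Camk2n2 was at 0 CPM (next value 159 CPM), Slc1a3, a glutamate transporter, at 1502 CPM (next 734 CPM), and Sod1 at 980 CPM (next 339 CPM). In the WT male of pool C, Gfap was at 1485 CPM (next 576 CPM), Gpc5 at 8274 CPM (next 5163 CPM), and the white matter list at 5092 CPM (next 3422 CPM). The heat shock list was at 2748 CPM in the SOD1G93A male of pool A (next 1566 CPM), and the oligodendrocyte list at 8856 CPM in the WT male of pool A (next 6065 CPM).

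For Gm40841 the genotype effect in sub-cluster 4 was 2.53 larger on the log2 scale than in sub-clusters 0 to 3 (limma-voom adjusted p = 0.0603). The call was lost with a minimum count of 30, with the mouse as a random block, with nuclei of at most 20000 UMIs, and without the WT female of pool A or B, the WT male of pool A or B, or the SOD1G93A male of pool C.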

How the results depend on the processing

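The mitochondrial difference kept its direction and its side of the threshold in every alternative run. The share by genotype kept its direction and passed only without the WT female of pool B or the SOD1G93A male of pool B, and its log2 difference ran from 0.94 to 1.70 over the mice left out; without the pool term (no replicate block) it was 1.16 (edgeR adjusted p = 0.05001). The sex difference in share ran from -0.19 to 0.58 over the mice left out and was -0.11 with all nuclei as the total. Genes at least 2-fold higher were 586 to 800 and lower 171 to 217 over the mice left out. Lower genes were 265 with a mean over nuclei and 317 with a mean over mice. By fold alone against sub-clusters 0, 1, 2 and 3, higher genes were 1363, 2500, 1887 and 963, and lower genes 165, 363, 623 and 361, without the rule on mice. Against sub-cluster 3 alone the ratio turned for Ccnjl (1.05), Grin2c (0.93), Frem1 (0.55), Vav3 (1.70), Etv4 (1.38), Kirrel3 (0.53), Galnt18 (0.0571) and Gpc5 (1.39).

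Genotype calls in sub-cluster 4 were 1 to 29 over the mice left out, with 28 without the WT female of pool B and 29 without the SOD1G93A female of pool B, 2 with no count filter (Galntl6 added), 2 with mapped nuclei and 0 without the pool term (no replicate block); the cause was not tested. Calls of a different effect were 0 to 6 over the mice left out, 10 in edgeR, and 0 with a minimum count of 30, with the mouse as a random block or with nuclei of at most 20000 UMIs. Differences near 0 changed sign: Sparc was -0.0377 with a minimum count of 30, -0.0626 without the pool term, -0.0857 with mice of at least 5 nuclei and -0.11 to 0.13 over the mice left out; Fth1 was 0.00425 with DESeq2 size factors, 0.0927 with no filter, 0.0288 with a minimum count of 30, 0.0306 with mapped nuclei, 0.17 with at most 20000 UMIs and -0.23 to 0.22 over the mice left out; Mt1 was -0.11 to 0.36 over the mice left out; Mt2 was 0.00288, 0.14, 0.13, 0.028 and 0.10 with DESeq2 size factors, a minimum count of 30, mice of at least 5 nuclei, mapped nuclei and at most 20000 UMIs, and -0.27 to 0.14 over the mice left out. Mt3 kept its sign but ran from -0.66, without the SOD1G93A female of pool B, to -0.10, without the WT female of pool A. Depth limits the WT mice of pool C, with 3 nuclei each.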
